A study of Mus musculus with 12 samples.

Results

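Acta2 and 9 other genes of the smooth-muscle contractile apparatus (Actg2, Tagln, Cnn1, Cnn2, Myl9, Tpm1, Tpm2, Cald1 and Lmod1) were followed by their symbols across all 12 RNA-seq libraries of 2 mouse testis cell lines. The expression table held 17995 genes, and all 10 symbols were found in it. Smooth muscle shortens when myosin pulls on thin filaments built of alpha and gamma smooth-muscle actin. Tropomyosins lie along these filaments, calponins and caldesmon bind them, and phosphorylation of the regulatory myosin light chain switches the motor on. Serum response factor (SRF) and its coactivators of the myocardin and MRTF family drive many of these genes through promoter elements called CArG boxes, and in the testis the genes are best known from the peritubular myoid cells that surround the seminiferous tubules.

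The libraries came from C18-4 cells, described as a mouse spermatogonial stem cell line, and from TM4 cells, described as a mouse Sertoli cell line, and both carried the strain label IRC. Cells of each line received either shM5, a set of shRNAs against the M5 muscarinic acetylcholine receptor, or shNC, a control shRNA, and each of the 4 groups had 3 libraries. Both groups of a line therefore consist of shRNA-treated cells, each line is a single established line, and no untreated cells were analysed here. The labels do not say that the 3 libraries of a group came from separate cultures, so p-values measure only the spread between these libraries. The question was how far these genes, which build the actin cytoskeleton, differed after shM5 treatment and between the lines. Values are RPKM, which are scaled for gene length and for library size, so levels of different genes can be set side by side. In such bulk values, fewer cells that express a gene and less of its RNA per cell cannot be told apart. The authors' values keep no read numbers, and the precision of each value is known only through the 3 libraries.

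The targeted gene, Chrm5, was listed at 0.01 RPKM or less in every library, so its mRNA could not show the knockdown in these data. The labelled cell types were matched only in part by their defining markers, and several markers were higher in the line of the other label. In C18-4 cells Zbtb16, Ddx4 and Dazl were at 0.05 RPKM or less, Gfra1 was between 0.12 and 0.34, and Id4 reached 1.64 to 4.71 RPKM. TM4 cells had Sox9 at 1.11 to 1.74 and Gata4 at 4.62 to 12.5 RPKM, but Amh, Clu and Wt1 stayed at or under 0.19. Wt1, a Sertoli cell transcription factor, was between 53.9 and 72.3 RPKM in C18-4 cells. There Clu was between 5.55 and 10.5 and Gata4 between 3.67 and 7.84 RPKM. Etv5, listed as a spermatogonial marker, was lower in C18-4, at 1.63 to 2.29, than in TM4 cells, at 5.98 to 7.49 RPKM. Summed over 8 Sertoli markers, the level was 73.1 to 87.9 RPKM in C18-4, mostly Wt1, and 7.82 to 16.1 RPKM in TM4 libraries, mostly Gata4. Summed over 8 spermatogonial markers, it was 3.98 to 6.51 RPKM in C18-4 and 6.03 to 7.61 RPKM in TM4 libraries. The TM4 sum was nearly all Etv5, since each other spermatogonial marker, Id4 included, was at 0.20 RPKM or less there. The higher sum in TM4 libraries therefore rests on Etv5 alone. Of smooth-muscle markers outside the 10 genes, Myh11, the smooth-muscle myosin heavy chain, was at 0.07 RPKM or less and Myocd, which encodes myocardin, at 0.04 or less in all libraries, while Smtn was between 21.0 and 32.6. Des was between 4.26 and 6.60 RPKM in C18-4 and at 0.53 or less in TM4 cells. The summed level of the 5 smooth-muscle markers ranged from 28.6 to 37.1 in C18-4 shNC, from 26.9 to 34.0 in C18-4 shM5, from 23.2 to 30.0 in TM4 shNC and from 28.7 to 31.3 RPKM in TM4 shM5 libraries.

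One library stood apart from its group. Replicate 3 of TM4 shNC differed from the other shNC libraries by a root mean square of 0.630 and 0.631 on the log2 scale over the measured genes, but from the 3 shM5 libraries by 0.227 to 0.269, and the other TM4 shNC libraries differed from each other by 0.211. In C18-4 cells the libraries numbered 3 of both groups were closer to each other, at 0.319, than to the rest of their own groups, at 0.377 to 0.437. Results in each line are therefore given with and without these libraries.

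Short stretches upstream of 3 members are shown first, because they hold the CArG elements through which SRF is known to act. The promoter windows come from RefSeq on the GRCm38.p6 build, and 8 of the 10 members had an entry. Tagln and Actg2 had none, so their promoters were not searched. A CArG box begins with CC, ends with GG, and has a run of A and T between them. Since it reads alike on both strands, 1 search covered both. It was found without a mismatch in 1.47% of 32851 windows of 250 bases before a start site, and with at most 1 inner mismatch, exact matches included, in 8.59%. An exact box stood in the windows of Cnn2 and Myl9 (2 of 8 members), and with the looser match Acta2 joined them (3 of 8). Capitals mark the boxes, each sequence is written 5′ to 3′ on the strand of its gene, and no match in a window says only that these letters are missing there.
Acta2, chr19:34255438-34255467, minus strand: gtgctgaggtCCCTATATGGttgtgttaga
Acta2, chr19:34255388-34255417, minus strand: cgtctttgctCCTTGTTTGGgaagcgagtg
Cnn2, chr10:79988350-79988583, plus strand: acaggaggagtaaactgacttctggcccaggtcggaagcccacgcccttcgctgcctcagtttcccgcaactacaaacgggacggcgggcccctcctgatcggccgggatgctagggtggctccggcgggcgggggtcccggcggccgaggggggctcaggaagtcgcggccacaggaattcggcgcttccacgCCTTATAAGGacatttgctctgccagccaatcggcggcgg
Myl9, chr2:156775214-156775419, plus strand: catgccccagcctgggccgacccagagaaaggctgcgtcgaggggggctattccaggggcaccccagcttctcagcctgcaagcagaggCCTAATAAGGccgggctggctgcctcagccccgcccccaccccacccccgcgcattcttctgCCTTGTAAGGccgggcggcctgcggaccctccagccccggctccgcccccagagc
Both Acta2 boxes carry 1 inner mismatch and lie 84 to 75 and 34 to 25 bases before the RefSeq start, within an annotated exon of another Acta2 transcript. The Cnn2 box is exact and lies 56 to 47 bases before the start. Myl9 has an exact box 161 to 152 bases before its start and a second one with 1 inner mismatch 99 to 90 bases before it.

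Both smooth-muscle actin genes were lower in C18-4 than in TM4 cells. Acta2 encodes alpha smooth-muscle actin and lies on the minus strand of chromosome 19, at chr19:34241090-34255590 in the GENCODE annotation of GRCm38. In C18-4 cells it was at 23.7, 19.8 and 15.9 RPKM in shNC and at 56.7, 61.8 and 34.6 RPKM in shM5 libraries. TM4 cells had 66.4, 63.3 and 139.8 RPKM in shNC and 143.9, 141.7 and 193.9 RPKM in shM5 libraries. In both lines the lowest shM5 library was above the highest shNC library, and in TM4 cells the gap was small because shNC replicate 3 reached nearly the level of the shM5 libraries. Acta2 shares 1.02% of its exact stretches of 35 bases with other genes' transcripts, all of them with Actg-ps1, and near matches were not counted. Actg2, the gamma smooth-muscle actin gene (chr6:83512905-83536265, minus strand), was listed at 0 in all C18-4 shNC libraries and at 0.15, 0.15 and 0 RPKM in C18-4 shM5 libraries. It was measurable in TM4 cells, at 4.75, 4.14 and 8.16 RPKM in shNC and at 8.38, 9.55 and 12.1 RPKM in shM5 libraries. The Actg2 levels of the TM4 groups did not overlap, although shNC replicate 3 and shM5 replicate 1 were close.

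The proteins that bind the thin filament gave more than 1 pattern. Tagln, which encodes transgelin (SM22 alpha), an actin-binding protein (chr9:45929619-45936058, minus strand), was at 45.9, 48.8 and 36.0 RPKM in C18-4 shNC and at 93.3, 87.1 and 69.4 RPKM in C18-4 shM5 libraries. TM4 shNC libraries had 59.3, 57.2 and 107 RPKM and TM4 shM5 libraries 90.4, 86.2 and 153 RPKM of Tagln. In C18-4 cells the groups did not overlap for Tagln, while in TM4 cells shNC replicate 3 was higher than 2 of the 3 shM5 libraries. Cnn1, the gene of the smooth-muscle calponin (chr9:22099216-22109630, plus strand), was between 3.22 and 3.66 RPKM in all 6 C18-4 libraries. In TM4 cells it was lower in shNC, at 0.59, 0.95 and 2.36 RPKM, than in shM5 libraries, at 2.59, 2.52 and 3.48 RPKM. Cnn2 encodes a calponin that is also made outside muscle (chr10:79988584-79996062, plus strand), and it was at 99.8, 95.3 and 83.2 RPKM in C18-4 shNC and at 91.3, 90.0 and 76.0 RPKM in C18-4 shM5 libraries. In TM4 cells Cnn2 was at 52.4 and 51.2 RPKM in shNC replicates 1 and 2, at 176 RPKM in replicate 3, and at 165, 166 and 173 RPKM in shM5 libraries. Cnn2 and Cald1 were the members whose level in TM4 shNC replicate 3 was above all 3 shM5 libraries. Cald1, which encodes caldesmon (chr6:34598500-34775473, plus strand), varied least between groups, with means of 326 ± 38.5, 335.5 ± 36.4, 358 ± 4.80 and 338 ± 5.77 RPKM in C18-4 shNC, C18-4 shM5, TM4 shNC and TM4 shM5 (SD, n = 3 libraries each).

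Myl9 encodes a regulatory myosin light chain of smooth muscle (chr2:156775420-156781658, plus strand). It was at 6.35, 6.81 and 6.28 RPKM in C18-4 shNC and at 13.3, 13.7 and 6.48 RPKM in C18-4 shM5 libraries, so shM5 replicate 3 lay within the range of the controls. TM4 cells had 26.5, 25.9 and 52.3 RPKM in shNC and 53.2, 57.5 and 61.1 RPKM in shM5 libraries, and here the groups did not overlap. Tpm1 and Tpm2 are tropomyosin genes whose products are also made outside muscle (chr9:67022590-67049406 and chr4:43514711-43523765, both on the minus strand). Tpm1 was at 353, 351 and 360.2 RPKM in C18-4 shNC, at 409, 414 and 341 RPKM in C18-4 shM5, at 383, 383 and 658 RPKM in TM4 shNC, and at 645, 628 and 701 RPKM in TM4 shM5 libraries. Tpm2 moved over a narrower range, from 36.5 RPKM in TM4 shNC replicate 2 to 57.7 RPKM in TM4 shM5 replicate 3. For both tropomyosins TM4 shNC replicate 3 lay among the shM5 libraries. Lmod1 encodes leiomodin, which starts new actin filaments in smooth muscle (chr1:135324807-135368065, plus strand), and it did not exceed 0.17 RPKM in any library.

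**Figure D1:**
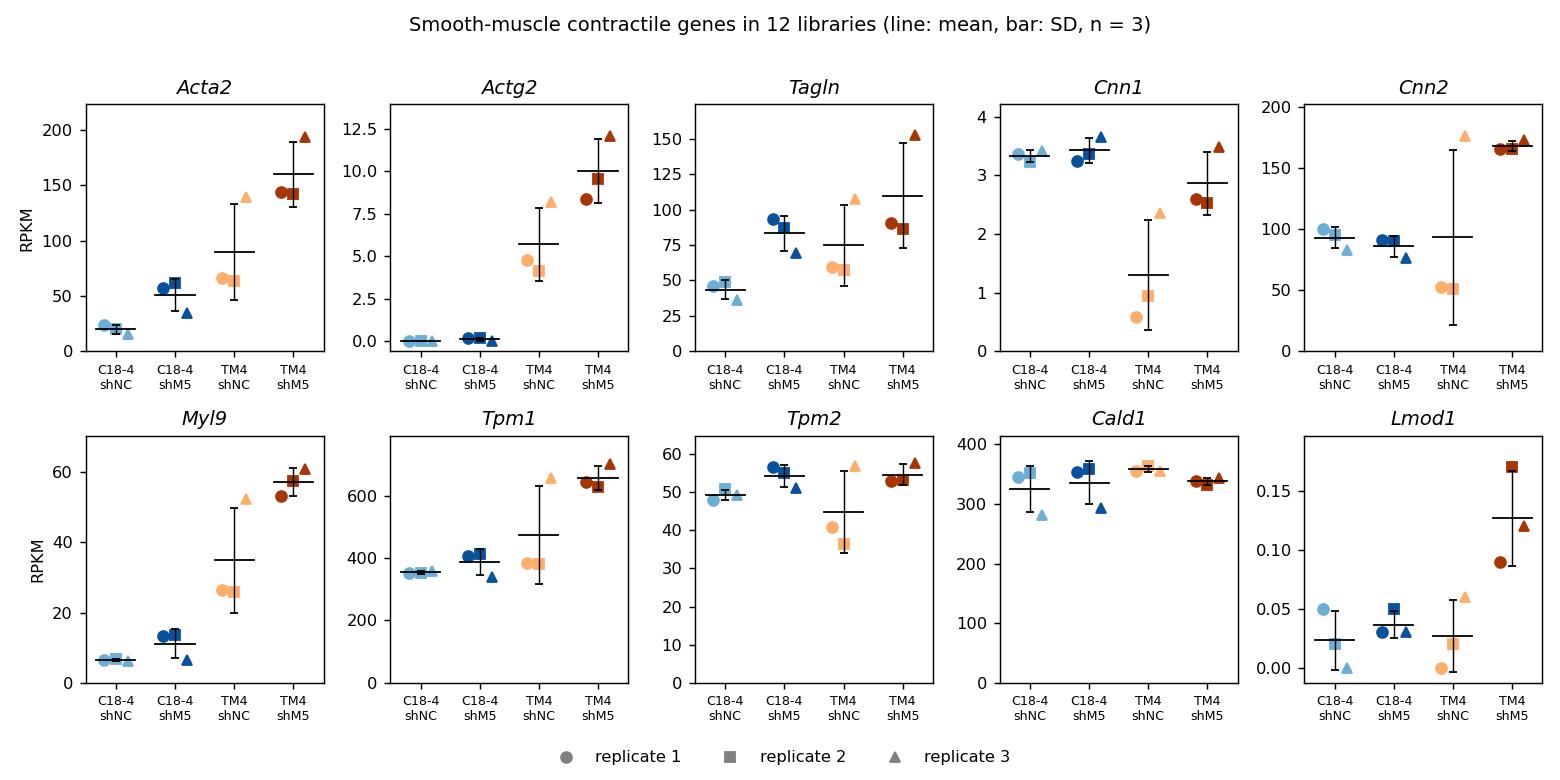
Level of each of the 10 genes in RPKM (linear y axes, one scale per gene) in the 4 groups of libraries, with points for single libraries, the point shape for the replicate number, a line for the mean and a bar for the SD (n = 3). In TM4 shNC, replicate 3 sits apart from replicates 1 and 2 for 8 of the genes shown with more than 0.5 RPKM, for example at 176 RPKM against 52.4 and 51.2 RPKM for Cnn2, whereas Cald1 stays between 281 and 364 RPKM in all 12 libraries.

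Ranked by level per length, Tpm1 and Cald1 came first and Cnn2 next by their group means in all 4 groups. Tpm1 and Cald1 overlapped in both groups of C18-4 cells and did not in TM4 cells, where the lowest Tpm1 value, 383 RPKM, was above the highest Cald1 value, 364 RPKM. Acta2 changed its place: it was below Tpm2 and Tagln in C18-4 shNC cells, whereas in TM4 cells its range overlapped those of Cnn2 and Tagln in shNC and in shM5 libraries. Tpm2 and Tagln overlapped in C18-4 shNC, Cnn2 with Tagln and Tpm2 with Acta2 in C18-4 shM5, and Tpm2 with Myl9 in both TM4 groups. Actg2 and Lmod1 were the lowest members in C18-4 cells, and in TM4 cells Cnn1 and Lmod1 were. Summed over the 10 members, the level was 836 to 927 RPKM in C18-4 shNC, 876 to 1085 RPKM in C18-4 shM5, 985 to 1555 RPKM in TM4 shNC and 1477 to 1698 RPKM in TM4 shM5 libraries.

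The contrast of shM5 with shNC in C18-4 cells was in view when these genes were put together, so it is described without a test. Of the 10 members 8 passed the minimum, 0.5 RPKM on average over the 6 libraries, and Actg2 and Lmod1 did not. Fold changes are on the log2(RPKM + 0.1) scale, and the added 0.1 shrinks the differences of low genes. Acta2 was 1.34 higher in shM5, with means of 51.1 ± 14.5 RPKM against 19.8 ± 3.90 RPKM (SD, n = 3). Tagln was 0.93 higher, with 83.3 ± 12.4 RPKM against 43.5 ± 6.72 RPKM, and Myl9 0.70 higher, with 11.1 ± 4.05 RPKM against 6.48 ± 0.29 RPKM. The other 5 members had small differences, of 0.13 for Tpm2, 0.12 for Tpm1, 0.044 for Cald1, 0.037 for Cnn1 and -0.11 for Cnn2. The 2 groups did not overlap, with shM5 higher, for Acta2, Tagln and Tpm2, which is 3 of 8 members beside 9.3% of 11611 genes, and none of the members was separate in the other direction, beside 9.55% of genes. Nothing is read from these counts, since the contrast helped to choose the genes.

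Libraries with the same replicate number deviated together in C18-4 cells, so the differences within numbers are given as well. The libraries numbered 1 and 2 also correlated across numbers, at 0.345 and 0.341. Mainly the libraries numbered 3 were thus set apart, and a pairing of numbers 1 and 2 is not established. For Acta2 the 3 differences of shM5 minus shNC were 1.26, 1.64 and 1.12 on the log2 scale, and for Tagln they were 1.02, 0.83 and 0.95. Both genes were thus higher in shM5 by a like amount within every number. Myl9 differed by 1.05 and 0.99 in the libraries numbered 1 and 2 and by 0.044 in those numbered 3. Without both libraries numbered 3, the difference was 1.45 for Acta2, 0.93 for Tagln and 1.02 for Myl9, and 6 members were separate with shM5 higher (beside 31.4% of 11549 genes) and Cnn2 was separate with shM5 lower (beside 33.5%).

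**Figure D2:**
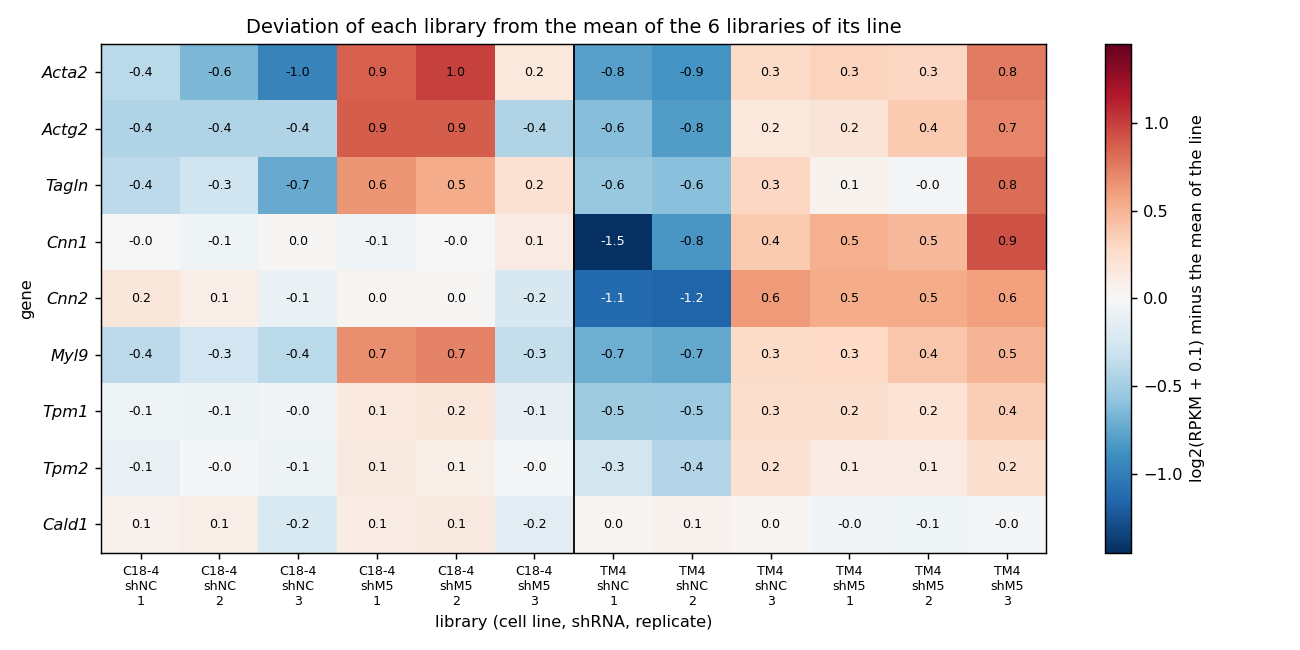
Deviation of each library (columns, grouped by line and shRNA) from the mean of its line for the 9 genes above the lowest level (rows), on the log2(RPKM + 0.1) scale, red for higher and blue for lower. On the TM4 side replicates 1 and 2 of shNC are blue for 8 genes and replicate 3 resembles the shM5 columns, and on the C18-4 side Acta2 and Tagln are red in all 3 shM5 columns while Myl9 is red in 2. Actg2 is near 0 RPKM in C18-4 cells, where its colours stand for 0.15 RPKM or less.

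In TM4 cells the contrast of shM5 with shNC was tested, since it uses libraries other than those of the C18-4 contrast. Earlier results of these data were known when the members were chosen, so full independence of this test is not established. Of the 10 members 9 were tested among 11016 genes, and Lmod1 was under the minimum. With all 6 libraries limma called 0 members and 0 genes in either direction at an adjusted p of at most 0.05 (0% of genes called). At an unadjusted p under 0.05, 5 members (Acta2, Actg2, Cnn1, Myl9 and Tpm1) were higher in shM5, beside 15% of all genes, and 0 were lower, beside 11%. The groups did not overlap for Acta2, Actg2, Cnn1 and Myl9, with shM5 higher (4 of 9 members, beside 15.7% of genes), and for Cald1, with shM5 lower (1 of 9, beside 11.1%).

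The estimates in TM4 cells were wide. Acta2 differed by 0.92 ± 0.32 on the log2 scale (SE), with means of 159.8 ± 29.5 RPKM in shM5 and 89.8 ± 43.3 RPKM in shNC (SD, n = 3) and an adjusted p of 0.192 from limma. For Actg2 the difference was 0.85 ± 0.27, for Myl9 0.79 ± 0.27, for Cnn1 1.27 ± 0.46 and for Cnn2 1.11 ± 0.47, and the adjusted p from limma was also 0.192 for each. Tpm1 differed by 0.52 ± 0.21 (adjusted p = 0.192), Tagln by 0.57 ± 0.32 (adjusted p = 0.240), Tpm2 by 0.31 ± 0.17 (adjusted p = 0.227) and Cald1 by -0.083 ± 0.054 (adjusted p = 0.293). An interval of 2 SE on each side ran from 0.28 to 1.55 for Acta2, from -0.065 to 1.20 for Tagln and from -0.19 to 0.024 for Cald1, and the interval of Acta2 thus spans small and large changes.

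Leaving out TM4 shNC replicate 3 turned these results into calls. This is the control that was closer to the shM5 libraries than to its own group. Leaving it out therefore widens the gap between the groups for many genes. The adjusted p-values below follow from that choice, which rests on the same values, and are no separate support for a difference. Then 8 of 9 members passed an adjusted p of 0.05 with shM5 higher, beside 36.5% of 11026 genes, and 0 were lower, beside 30.9%. The exception was Cald1 (-0.090, adjusted p = 0.0608). The differences became 1.29 for Acta2, 1.14 for Actg2, 0.86 for Tagln, 1.78 for Cnn1, 1.70 for Cnn2, 1.12 for Myl9, 0.78 for Tpm1 and 0.50 for Tpm2 on the log2 scale, and the adjusted p-values from limma ran from 2.19e-07 for Cnn2 to 0.00918 for Tagln. The study's stricter threshold is an adjusted p of at most 0.001 and a log2 difference of at least 1. The study put it on DEGseq results from read numbers, whereas here and below it is put on limma results from RPKM. Counts by it are therefore not those of the study's method. By this threshold 5 members (Acta2, Actg2, Cnn1, Cnn2 and Myl9) were higher, beside 4.15% of genes, and 0 were lower, beside 3.97%. Without both libraries numbered 3, the same 8 members were higher and Cald1 was lower, beside 39.9% and 32.8% of genes. That fit had 2 libraries of shNC, and which of the shNC libraries represents the control cells cannot be told from these data.

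Some markers of other cells moved with the same libraries, and others did not. Pdgfra, a platelet-derived growth factor receptor of fibroblasts, was at 11.9 and 12.6 RPKM in TM4 shNC replicates 1 and 2, at 27.1 RPKM in replicate 3, and at 27.0 to 30.7 RPKM in shM5 libraries. Col1a1 was at 142 and 131 RPKM in TM4 shNC replicates 1 and 2, at 216 RPKM in replicate 3 and at 223 to 291 RPKM in shM5 libraries. Dcn did not follow them, at 809, 820 and 797 RPKM in shNC and at 854, 848 and 565 RPKM in shM5 libraries. Lum was at 0.15 RPKM or less. Summed over the 4 fibroblast markers, mostly Dcn, the level was 962 to 1040 RPKM in TM4 shNC and 816 to 1170 in shM5 libraries. Of the Sertoli markers Gata4 was at 12.5 and 11.5 RPKM in shNC replicates 1 and 2 and at 4.62 to 5.26 RPKM in the other 4 TM4 libraries, and the sum of the 8 Sertoli markers measured, mostly Gata4, was 8.17 to 16.1 RPKM in shNC and 7.82 to 8.54 RPKM in shM5 libraries. Sox9 and Dhh did not follow Gata4, with 1.74, 1.13 and 1.19 RPKM and 0.57 to 1.53 RPKM in shNC and 1.11 to 1.43 RPKM and 0.86 to 1.60 RPKM in shM5 libraries. The part of these markers in the differences of the members was not tested. Markers of Leydig cells, endothelium and macrophages summed to at most 1.58, 0.44 and 1.66 RPKM in any TM4 library.

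**Figure D3:**
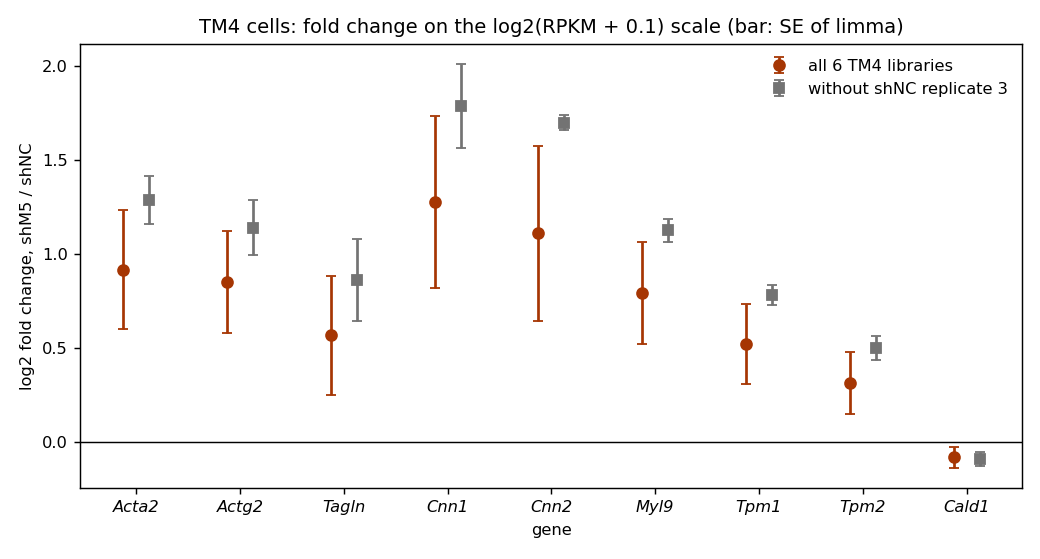
Log2 fold change of shM5 over shNC in TM4 cells on the log2(RPKM + 0.1) scale for 9 genes, with the SE of limma as bars, for all 6 libraries (circles) and without shNC replicate 3 (squares). Each gene other than Cald1 lies higher without that library, for example Acta2 at 1.29 in place of 0.92, and the bars shrink.

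The lines were compared within the shNC libraries first. The C18-4 libraries of both comparisons of the lines are those of the contrast that was in view when the genes were chosen. Their C18-4 levels are thus not independent of the choice. The TM4 libraries were not part of that contrast, but earlier results of these data were known, so their independence is not established. Of the 10 members 9 were tested among 11810 genes, and 4 were lower in C18-4 than in TM4 cells (beside 20.5% of genes) while 1 was higher (beside 34.7%). Myl9 was lower, at -2.33 ± 0.27 on the log2 scale (SE), with 6.48 ± 0.29 RPKM in C18-4 against 34.9 ± 15.1 RPKM in TM4 cells (SD, n = 3), with an adjusted p of 0.000388 from limma. Acta2 was lower, at -2.09 ± 0.32, with 19.8 ± 3.90 RPKM against 89.8 ± 43.3 RPKM (adjusted p = 0.00145). Actg2 was called lower as well, and since it was listed at 0 in all 3 C18-4 shNC libraries and passed the minimum through TM4 cells, it had to differ and no fold is given. The counts of lower members in both comparisons of the lines, under every setting, include it. Tagln was lower, at -0.73 ± 0.26 (adjusted p = 0.049), and it was called in 7 of 14 alternative settings, with adjusted p-values from 0.000863 to 0.157. Cnn1 was higher in C18-4 by 1.50 ± 0.43 (adjusted p = 0.0229), and it was called in 8 of 14 settings, with adjusted p-values up to 0.0876. Cnn2, Tpm1, Tpm2 and Cald1 were not called, with differences of 0.25, -0.37, 0.17 and -0.14 and adjusted p-values from limma of 0.665, 0.177, 0.429 and 0.299.

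TM4 shNC replicate 3 also weighed on this comparison. Without it, Acta2 was at -1.72, Myl9 at -1.998 and Tagln at -0.43 on the log2 scale, and all 3 passed the threshold. Cnn1, Cnn2 and Tpm2 were then called higher in C18-4 cells, by 2.01, 0.84 and 0.35, so that 3 members were higher and 4 lower beside 42% and 27% of 11804 genes. Over all genes the median difference between the lines was 0.15 in shNC and 0.12 in shM5 libraries, and quantile normalization moved it to -0.013 and -0.020. With that scaling the share of calls that were higher in C18-4 went from 62.8% to 49.4% in shNC and from 59.4% to 48.9% in shM5 libraries. Under it 4 members (Acta2, Actg2, Myl9 and Tagln) were called lower in C18-4 shNC cells, beside 28.4% of genes, and 0 were higher, beside 27.8%, since Cnn1 was no longer called. In the shM5 libraries 5 members were called lower under it, beside 36.7%, and 0 higher, beside 35.1%. By the study's stricter threshold 2 members were lower in shNC (beside 6.38%) and 3 in shM5 libraries (beside 9.67%), and 0 were higher in either (beside 12.8% and 15.6%).

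The shM5 libraries gave the same comparison in other samples. Among 11737 genes 5 members were lower in C18-4 than in TM4 cells (beside 29% of genes) and 0 were higher (beside 42.5%). Myl9 was lower, at -2.42 ± 0.26 (adjusted p = 9.39e-05), with 11.1 ± 4.05 RPKM against 57.2 ± 3.96 RPKM (SD, n = 3). Acta2 was lower, at -1.67 ± 0.22 (adjusted p = 0.000296), with 51.1 ± 14.5 RPKM against 159.8 ± 29.5 RPKM. Actg2 was among the 5, but at 0.15 RPKM or less in C18-4 shM5 libraries it again passed the minimum through TM4 cells, had to differ, and is given no fold. Cnn2, at 85.8 ± 8.51 RPKM against 168 ± 4.03 RPKM, was lower, at -0.97 ± 0.076 (adjusted p = 1.36e-05). Tpm1 was lower, at -0.77 ± 0.086, with 388 ± 40.6 RPKM against 658 ± 38.2 RPKM (adjusted p = 0.000107). Tagln, Cnn1, Tpm2 and Cald1 were not called, at -0.36, 0.26, -0.011 and -0.016, with intervals of 2 SE from -0.80 to 0.081, from -0.029 to 0.55, from -0.14 to 0.11 and from -0.18 to 0.14. Acta2 and Myl9 were called in all 14 alternative settings of either comparison of the lines. Without both libraries numbered 3, Cald1 and Cnn1 were called higher in C18-4 shM5 cells and the same 5 members lower, beside 44.6% and 34.7% of genes. Whether a difference between the lines was itself changed by shM5 was not tested.

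**Figure D4:**
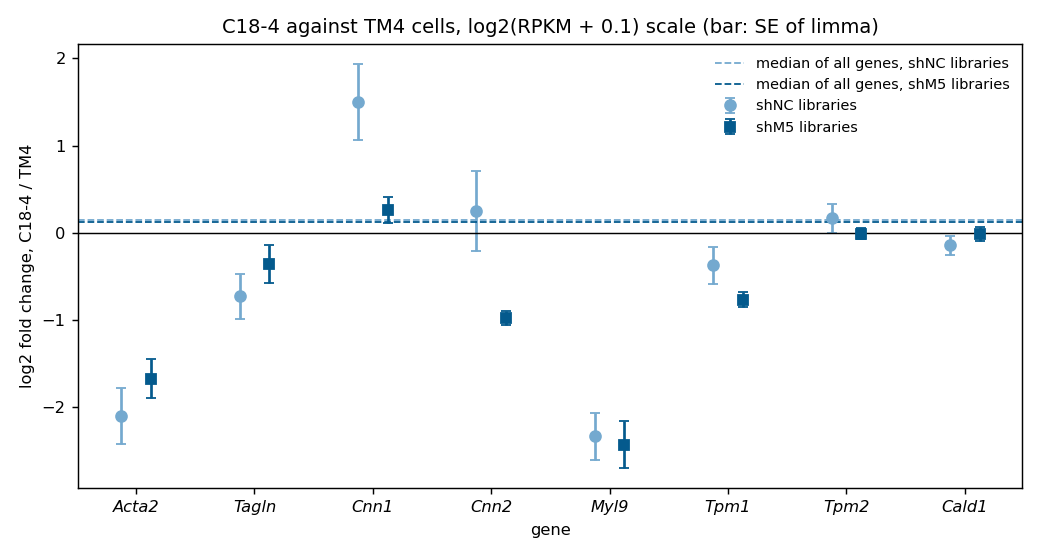
Log2 fold change of C18-4 over TM4 cells on the log2(RPKM + 0.1) scale for 8 genes, with the SE of limma as bars, in shNC libraries (circles) and in shM5 libraries (squares), and the median of all genes as dashed lines at 0.15 and 0.12. Acta2 and Myl9 lie at or below -1.67 in both, Cnn1 is at 1.50 in shNC and 0.26 in shM5 libraries, and Tpm2 and Cald1 lie near 0.

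Next, genes with a pattern like that of Acta2 were sought across all 12 libraries. For each of 7791 genes that averaged 5 RPKM or more in both lines, the deviations from the own mean of the line were compared with those of Acta2, and likeness was the root mean square of the log2 differences over the 12 libraries. Tagln ranked 3rd of these genes with 0.247 and Myl9 5th with 0.278. The other members were farther off, with Tpm1 at 0.495 (rank 228), Tpm2 at 0.537 (rank 598), Cnn2 at 0.565 (rank 1006) and Cald1 at 0.658 (rank 3123), and Cnn1, Actg2 and Lmod1 were under the minimum level. The 3 genes outside the members with the most similar pattern were Idi1 (0.239), an enzyme of isoprenoid synthesis, Gm38481 (0.239), and Skp2 (0.259), a subunit of a ubiquitin ligase of the cell cycle. Idi1 was at 6.16 to 10.9 RPKM in C18-4 shNC, at 12.5 to 18.2 RPKM in C18-4 shM5, at 11.2, 12.9 and 24.8 RPKM in TM4 shNC and at 23.0 to 28.8 RPKM in TM4 shM5 libraries. These values describe 12 libraries, among them the ones that stood apart, and no test was made of them. The C18-4 libraries of the contrast in view when the members were chosen are also among them. The ranks of members are therefore not independent of that choice, and nothing is read from them.

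Finally, 5 lists of related genes were set beside the members: other actin isoforms, other smooth-muscle differentiation genes, non-muscle contractile machinery, SRF with its coactivators and upstream regulators, and other targets of SRF and MRTF. The table held 69 genes of these lists. In TM4 cells 54 were tested between shM5 and shNC and 0 were called with all 6 libraries, with a median difference of 0.11 beside 0.036 over all genes. Without shNC replicate 3, 27 were higher and 13 lower (beside 36.5% and 30.9% of all genes), which splits into 2 and 0 of 2 actin isoforms, 4 and 0 of 8 smooth-muscle differentiation genes, 5 and 3 of 11 non-muscle contractile genes, 7 and 3 of 15 regulators and 9 and 7 of 18 targets.

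Between the lines, 18 of 56 list genes were higher and 15 lower in C18-4 shNC than in TM4 shNC cells, beside 34.7% and 20.5% of all genes. In shM5 libraries 25 of 55 were higher and 17 lower, beside 42.5% and 29%. The pooled lists thus lay near the share of all genes, but single lists did not all do so. In shNC libraries 3 of 18 targets were higher and 8 lower, with a list median of -0.295 beside 0.152 over all genes. Of 15 regulators 6 were higher and 1 lower there. In shM5 libraries 6 targets were higher and 8 lower, and 8 regulators were higher and 4 lower. These splits are given without a test. The genes with values below were picked by the size of their called differences in these same comparisons, so their p-values are no separate support. Fhl1, a LIM-domain gene of muscle, was at 96.1 RPKM in C18-4 shNC against 1.91 RPKM in TM4 shNC cells, a difference of 5.58 ± 0.14 on the log2 scale (adjusted p = 2.84e-07 from limma), opposite to Acta2. Its shM5 libraries gave 5.54 ± 0.20. Flna, the gene of the actin crosslinker filamin A, was lower in C18-4 cells, at -1.34 ± 0.13 in shNC and -1.21 ± 0.085 in shM5 libraries, and so was Hspb6, a small heat shock protein of muscle, at -1.46 ± 0.11 and -1.58 ± 0.073. The tropomyosin genes Tpm3 and Tpm4 were lower in C18-4 cells, at -0.89 and -0.74 in shNC and at -0.89 and -0.76 in shM5 libraries, where Tpm1 was at -0.77 and Tpm2 was not called. Among the regulators Tgfb3 and Tgfb2 were higher in C18-4 cells, by 2.82 and 1.66 in shNC and by 1.77 and 2.20 in shM5 libraries, and the receptor gene Tgfbr2 was lower, at -1.21 and -1.60. Fhl2 and Thbs1, both listed as targets of SRF and MRTF, were lower in C18-4 cells like Acta2 and Myl9, at -2.23 and -1.79 in shNC and at -1.52 and -1.90 in shM5 libraries. Fblim1, a filamin-binding gene, was at -1.38 in shNC libraries, and its mean was 17.1 against 39.9 RPKM in shM5 libraries. Cyr61, another listed target, was at -1.29 in shM5 libraries, and its mean was 213 against 547 RPKM in shNC libraries. Other listed targets went the other way, with 3 of 18 called higher in C18-4 cells in shNC and 6 of 18 in shM5 libraries. Lima1, a listed target, had C18-4 means above those of TM4 cells, at 94.0 against 38.7 RPKM in shNC and 92.0 against 53.8 RPKM in shM5 libraries. Myl12b, a non-muscle relative of Myl9, was higher in C18-4 cells, by 0.71 and 0.66, while Myl9 was lower in both comparisons. In C18-4 cells 13 of 57 list genes were separate between the groups with shM5 higher (beside 9.3% of all genes) and 5 with shM5 lower (beside 9.55%), values that are given without a test.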

How the data were processed

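RNA of shNC- and shM5-treated C18-4 and TM4 cells was sequenced by the authors, who aligned reads with SOAPaligner and deposited RPKM with 2 decimals. The genome build is not given in the sources used here, and read numbers were not used here. The relative value of 1 read, from steps between low values of 26 to 37 genes per library, was 0.961 to 1.02. log2(RPKM + 0.1) was fitted with limma 3.58.1 in R 4.3.3 (eBayes with trend, Benjamini-Hochberg adjustment over all genes that averaged 0.5 RPKM or more in the 6 libraries fitted), without a replicate block, and calls used an adjusted p of 0.05. The step was tested on simulated data. Members and lists were chosen with earlier results of these data known. Named genes were the members, Chrm5 and the 3 genes most like Acta2. Per list they were also the 3 with the largest called log2 differences between the lines, among genes averaging at least 5 RPKM. Same-numbered C18-4 libraries correlated at 0.439, 0.409 and 0.631 in their deviations, and differences within numbers were given for that reason. Numbers 1 and 2 correlated with each other at 0.345 and 0.341, so their pairing is not established. Alternatives were pseudocount, filter, trend, scaling, block, threshold and left-out libraries.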

Additional observations from a re-analysis of the deposited data

How the results depend on the processing

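Over 14 alternative settings a comparison, 331 of 378 tested values of single members kept direction and side of the threshold, 24 passed it newly, 13 lost it and 10 reversed. Of the 112 untested C18-4 values 109 moved by less than the spread between replicates and 3 reversed. Of 420 values of other named genes 408 kept it and 12 passed it newly. In TM4 cells the number of members called higher ran from 0 to 8 when 1 library was left out (8 without shNC replicate 3) and was 8 without both libraries numbered 3, where 1 was lower. List genes went from 0 to 27 higher and 0 to 13 lower in the former and to 29 and 14 in the latter. For the lines in shNC libraries, members higher in C18-4 went from 1 to 0 with quantile normalization or the study's threshold, to 3 without both libraries numbered 3, and from 0 to 3 with 1 library left out, and members lower went from 4 to 2 with the study's threshold and to 5 without both libraries numbered 3, with Tpm1 added (-0.12, adjusted p = 0.0172 from limma). List genes there became 30 higher and 23 lower without both libraries numbered 3. For the lines in shM5 libraries, members higher went from 0 to 2 without both numbered 3 and from 0 to 1 with 1 left out, and members lower from 5 to 3 with the study's threshold. In C18-4 cells the separate members with shM5 higher went from 3 to 6 without shM5 replicate 3 or both numbered 3 (3 to 6 with 1 left out), those lower from 0 to 1 in both (0 to 1 with 1 left out), and list genes from 13 to 35 higher and 5 to 11 lower (up to 26 and 9 with 1 left out). Reversals were small: Cnn2 between the lines in shNC (-0.037 and -0.054 without TM4 shNC replicates 1 and 2, and up to 0.84 with 1 library left out), and in shM5 libraries Tagln (0.030 without both numbered 3), Cnn1 (-0.11, quantile), Tpm2 (0.032, 0.029 and 0.072 without C18-4 replicate 3, TM4 replicate 3 or both, from -0.043 with 1 left out) and Cald1 (0.094, 0.077 and 0.089 with quantile normalization, without C18-4 replicate 3 or without both, from -0.069 with 1 left out). In C18-4 cells Cnn1 was -0.010 without shM5 replicate 3 and up to 0.075 with 1 left out, and Cald1 was -0.058 without shNC replicate 3 and up to 0.14. The cause of these shifts was not tested. The replicate number as a block left 0 members called in TM4 cells, 1 higher and 3 lower between the lines in shNC and 0 and 5 in shM5 libraries. Same-numbered libraries correlated by 0.049 to 0.127 in TM4 cells and below 0 between the lines, so there they share a number and no pairing was used. Settings without the libraries numbered 3 for the lists were chosen after seeing the data. Limits are the 3 libraries a group, 1 of them apart in TM4 shNC, and the missing read numbers.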

Other observations

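Some genes outside the 10 members also separated TM4 shNC replicates 1 and 2 from the other 4 TM4 libraries, in both directions. They were chosen after their values were seen. Actb and Actg1, the cytoplasmic actin genes, were at 919.8 and 909 RPKM and at 1047 and 1036 RPKM in these 2 libraries, at 2019 and 2234 RPKM in shNC replicate 3, and at 1721 to 1962 and 2012 to 2299 RPKM in shM5 libraries. Srf was at 17.85 and 17.96 RPKM, at 30.4 RPKM and at 30.2 to 30.8 RPKM in the same order. Vcl, the gene of vinculin, was at 36.1, 36.0 and 70.7 RPKM in shNC and at 72.1 to 76.7 RPKM in shM5 libraries. Klf4, a repressor of smooth-muscle genes in vascular cells, ran the other way, with 10.1, 10.95 and 2.34 RPKM in shNC and 1.19 to 1.79 RPKM in shM5 libraries. So did several listed targets of SRF and MRTF. Ctgf was at 269.8, 267 and 129.9 RPKM in shNC and at 121.5 to 131 RPKM in shM5 libraries, and Ankrd1 at 298, 298 and 100.5 RPKM and at 95.9 to 108 RPKM. Fhl2 was at 54.6, 52.5 and 30.4 RPKM in shNC and at 29.0 to 29.9 RPKM in shM5 libraries, and the regulator Tgfb2 at 6.27, 6.77 and 3.16 RPKM and at 3.26 to 3.87 RPKM. With all 6 libraries the adjusted p from limma was 0.192 for Klf4, Srf and Vcl, 0.195 for Actg1 and 0.212 for Actb. Without shNC replicate 3 Klf4 was lower in shM5, at -2.79 on the log2 scale (adjusted p = 5.91e-06 from limma). Actb, Actg1, Srf and Vcl were then higher by 0.99, 1.02, 0.76 and 1.04 (adjusted p from 1.40e-06 to 6.34e-06 from limma). These p-values too follow from leaving out the control that resembled the shM5 libraries.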
